A study of Homo sapiens with 6 samples.

Results

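The genes described are MYC, MYCN, MYCL, MAX, MXD1, MXD3, MXD4, MNT, MGA and MLX, the core of the MYC and MAX network of transcription factors. They were picked by gene symbol, and 10 of 10 were found among the 24462 symbols counted. RNA-seq was carried out on PC3, a prostate cancer cell line derived from a bone metastasis. Cells were transfected with 80 nM of a non-targeting siRNA (3 libraries labelled si-Control) or of CITED2-targeting siRNA (3 libraries labelled si-CITED2) and were analysed at 72 h. Both groups thus share the cell line, the transfection, the dose and the time, and differ in the siRNA; the methods list 1 siRNA sequence for each, so that an effect of CITED2 and an effect of that sequence cannot be told apart. The targeted mRNA did not fall: CITED2 was 841.2 ± 61.4 normalized counts (SD, n = 3) in the libraries labelled si-Control and 996.4 ± 82.4 (SD, n = 3) in those labelled si-CITED2 (log2 fold change 0.24, adjusted p = 0.0363). The study took the knockdown from an immunoblot of the protein, which is not analysed here. The mRNA goes against the label, the groups are called by their labels throughout, and each "higher" or "lower" given here means in the libraries labelled si-CITED2 compared with those labelled si-Control.

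Proteins of this network carry a basic helix-loop-helix leucine zipper and bind DNA as dimers, most of them at the E-box CACGTG. MAX is the common partner. MYC, MYCN and MYCL with MAX recruit histone acetyltransferase complexes and raise transcription of genes for growth and ribosome production, whereas the MXD proteins, MXI1 and MNT with MAX recruit SIN3 and NCOR corepressors to the same sites. MGA with MAX belongs to a Polycomb complex, and MLX forms a parallel branch with MLXIP (also called MondoA) and MLXIPL (ChREBP), which respond to glucose metabolites. MYC is a classic oncogene of prostate cancer, and TGF-beta signalling is known for lowering MYC in epithelial cells.

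Total counts lay between 19508925 and 28936374 per library, so that 3 counts, the smallest number read as detection, were between 0.104 and 0.154 CPM (counts scaled to the same total, counting error only). To obtain normalized counts, each library was scaled to the average TMM-corrected library size. A gene was called where the adjusted p of edgeR's quasi-likelihood test over all 16314 genes tested was under 0.05. By that rule 17.4% of all genes were called, 8.09% lower and 9.36% higher. The values of the groups did not overlap for 32.5% of all genes, and an exact permutation test of 3 against 3 cannot give a p below 0.1. The cell line label was checked against markers. KRT8, KRT18 and EPCAM together held 31157 to 38775 normalized counts per library, while the luminal markers KLK2, KLK3 and TMPRSS2 were low: KLK2 was at 0 in every library, KLK3 was at 0 in 5 and at 2 counts in 1, and TMPRSS2 had at most 8 counts. Of the epithelial markers, KRT8 and KRT18 were called higher and EPCAM lower. Among 7 markers of blood and vessel cells, HBB had 0 counts in each library labelled si-Control and 20, 32 and 20 in those labelled si-CITED2, and HBA2 had at most 3 and at least 45; HBA2 has a near-identical copy, so its counts are uncertain. The other 5 did not follow: PTPRC, CD3E, PECAM1 and VWF had at most 11 counts, and CD68 overlapped between the groups. The summed level of the 7 markers was 3192 to 3444 normalized counts in the libraries labelled si-Control and 2957 to 3535 in the others, and the part of these markers in the results below was not tested.

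Of the 9 network members that passed the filter on low counts, 1 was called higher (MXD4) and 1 lower (MLX), and 7 were not called; MYCN did not pass. These 2 of 9 stand beside 17.4% of all genes, and 4 of the 9 had groups that did not overlap (MYC, MLX, MXD1 and MXD4) beside 32.5% of all genes. The median log2 fold change of the 9 was 0.04, against -0.001 over all genes tested. Of the 3 companions MXI1, MLXIP and MLXIPL, which are bHLHZip genes of the same network but were not picked as members, MLXIP was called higher. Since the RNA comes from whole cultures, less RNA per cell and fewer cells that hold it cannot be told apart.

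**Figure D1:**
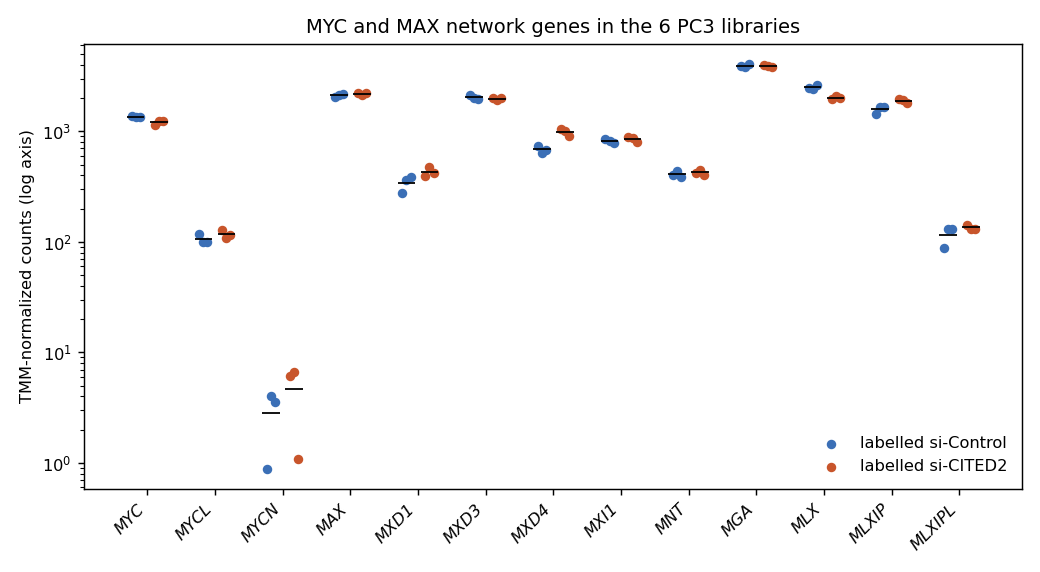
TMM-normalized counts (log axis) of the 10 members and 3 companions in each of the 6 libraries, blue for those labelled si-Control and orange for those labelled si-CITED2, with a line at each mean of 3. MXD4 and MLXIP were called higher and MLX lower; the MYC values lay below those of the other group without overlap, short of the threshold, and MYCN had at most 7 counts in any library.

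The start sites of the called members MXD4 and MLX are shown because both windows hold the E-box that this network binds. The sequences are from RefSeq (GRCh38.p14) and were read from that build (the submitters' notes name hg19). They cover 250 bases before to 50 after the start, 5′ to 3′ on the gene's own strand, with CACGTG in capitals. The MXD4 window is chr4:2262060-2262359 on the minus strand and its E-box starts at position -238 from the gene's start. The MLX window is chr17:42566850-42567149 on the plus strand and its E-box starts at position -50. MNT, at position -193, was the other of 12 member and companion windows examined that held CACGTG. The motif is its own reverse complement, so both strands were covered. It was present in 3 of these 12 windows (25%), in 7.26% of all 35116 windows and in 8.91% of the windows of genes tested. A match of these letters is a description and not a bound site.
MXD4: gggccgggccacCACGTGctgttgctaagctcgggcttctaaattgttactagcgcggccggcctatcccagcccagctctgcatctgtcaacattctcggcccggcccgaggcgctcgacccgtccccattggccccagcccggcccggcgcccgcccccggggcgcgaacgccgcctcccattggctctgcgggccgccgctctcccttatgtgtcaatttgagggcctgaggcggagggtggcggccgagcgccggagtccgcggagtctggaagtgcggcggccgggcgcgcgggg
MLX: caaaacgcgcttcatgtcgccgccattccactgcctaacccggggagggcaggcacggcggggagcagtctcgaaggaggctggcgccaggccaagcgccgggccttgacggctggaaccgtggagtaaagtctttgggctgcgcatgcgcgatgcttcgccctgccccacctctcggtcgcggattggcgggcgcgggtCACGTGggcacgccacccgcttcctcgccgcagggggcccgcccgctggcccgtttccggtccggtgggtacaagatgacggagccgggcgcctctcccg

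MYC itself was counted at 1361.6, 1337.3 and 1354.3 normalized counts in the libraries labelled si-Control and at 1143.8, 1242.1 and 1228.2 in those labelled si-CITED2. All 3 of the latter lay below all 3 of the former, which were themselves within a narrow range (1351.1 ± 12.5, SD, n = 3, against 1204.7 ± 53.2). The log2 fold change from edgeR was -0.16 (standard error 0.057, 95% interval -0.29 to -0.04), and the gene missed the threshold (adjusted p = 0.0604 in edgeR's quasi-likelihood test). With library size alone in place of TMM it passed (adjusted p = 0.0385), and over 13 alternatives the log2 fold change stayed between -0.19 and -0.13 with adjusted p from 0.0385 to 0.168. MYCL, the family member first found in lung cancer, had 117.3, 99.0 and 98.8 normalized counts against 127.5, 108.9 and 115.0. The groups overlapped, and the interval of its log2 fold change ran from -0.16 to 0.46. MYCN, the neural paralog, had 1, 5 and 3 reads against 5, 7 and 1, at or near the 3 counts read as detection, and no fold change is given. MYC held 89.5% to 93% of the normalized counts of the 3 genes in each library.

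MAX, the shared partner, had 2039.7, 2150.4 and 2161.5 normalized counts against 2201.5, 2117.3 and 2224.1. The groups overlapped, the log2 fold change was 0.04, and the 95% interval (-0.07 to 0.15) leaves room for small shifts in either direction.

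Of the 5 repressive partners of MAX (MXD1, MXD3, MXD4, MXI1 and MNT), 1 was called. This share is near the 17.4% of all genes called in either direction and so no result about the partners as a group. MXD4, an MXD family gene that is typically raised as cells stop dividing and differentiate, had 741.2, 640.0 and 678.9 normalized counts in the libraries labelled si-Control and 1055.2, 1003.3 and 912.6 in those labelled si-CITED2. Every value of the second group exceeded every value of the first. The mean rose from 686.7 ± 51 to 990.4 ± 72.2 (SD, n = 3 each), a 1.44-fold level. Its log2 fold change of 0.53 (standard error 0.075, interval 0.37 to 0.69, adjusted p = 8.45e-05) kept the call in all 13 alternatives, with values from 0.48 to 0.59.

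MXD1, first described as MAD1 and also linked to differentiation, had 277.3, 361.5 and 389.5 normalized counts against 392.2, 478.7 and 416.3. The groups came close but did not overlap. The log2 fold change was 0.33 (interval 0.08 to 0.58) with an adjusted p of 0.063, so it was not called. The size of the change depended on single libraries. Without si-Control replicate 1, which held the lowest value, the log2 fold change was smaller, at 0.20 (adjusted p = 0.227). Without si-CITED2 replicate 2 it was 0.24 (adjusted p = 0.28), and without si-Control replicate 3 it was 0.43 (adjusted p = 0.0311).

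MXD3 was the MXD gene with the most reads and, unlike the rest of its family, is typically found in dividing cells. On counts per kilobase it was also the highest of its family. It had 2117.1, 2020.8 and 1954.4 normalized counts against 1999.9, 1934.9 and 1992.9, with overlapping groups and a log2 fold change of -0.04 (interval -0.15 to 0.07). In GENCODE 29, MXD3 shares exon bases with PRELID1 on the opposite strand, and their total was not computed. The longest single shared stretch is 538 exon bases (16.3% of the exon bases of MXD3). How reads there were assigned is not given in the sources used here, and PRELID1 itself had a log2 fold change of -0.06 (adjusted p = 0.553).

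MNT, a broadly expressed repressor that opposes MYC, had 404.4, 436.4 and 385.9 normalized counts against 423.8, 444.3 and 405.4. Its groups overlapped (log2 fold change 0.05, interval -0.13 to 0.23). The companion MXI1 (also MXD2) had 778.9 to 850.6 normalized counts against 800.9 to 886.4 and likewise overlapped (log2 fold change 0.07, interval -0.08 to 0.21). The interval of MXD4 lay wholly above those of MXD3, MXI1 and MNT, as the plot of fitted changes shows, while the difference between these genes was not itself tested.

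**Figure D2:**
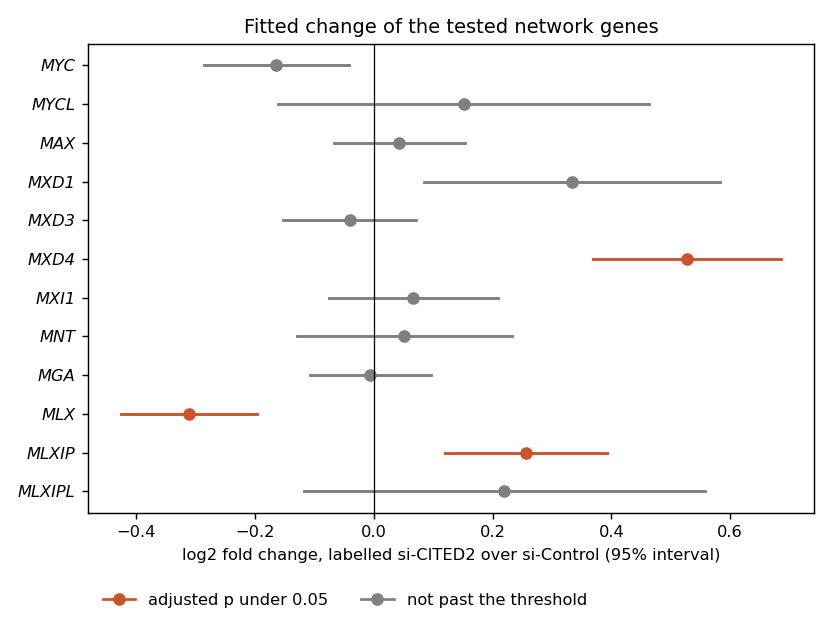
Log2 fold change of the 9 tested members and 3 companions from edgeR, with its 95% interval (libraries labelled si-CITED2 over those labelled si-Control, 3 each). Orange marks an adjusted p under 0.05: MXD4 (0.53) and MLXIP (0.26) lay above 0 and MLX (-0.31) below; the intervals of MYC and MXD1 exclude 0 although their adjusted p did not pass.

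MGA, the largest protein of the network and a scaffold of the Polycomb complex PRC1.6, was the member with the most reads. It had 3888.4, 3787.9 and 4042.9 normalized counts against 3946.4, 3884.0 and 3839.0. The means were within 0.43% of each other (log2 fold change -0.01, interval -0.11 to 0.10), and its sign turned when single libraries were left out. Of the 10 other subunits of that complex examined, 1 was called lower and 1 higher, a share near the 17.4% of all genes called in either direction and so no result about the complex (median log2 fold change 0.09). L3MBTL2, the subunit with malignant brain tumour repeats that bind histones, was 500.4 ± 8.6 against 396.3 ± 21.8 normalized counts (log2 fold change -0.34, adjusted p = 0.00701). RING1, a ubiquitin ligase for histone H2A, was 583.1 ± 30.7 against 693.3 ± 40.9 (log2 fold change 0.25, adjusted p = 0.0282). The RING1 call was lost without si-Control replicate 1 or without si-Control replicate 3, where 0 subunits were called higher.

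MLX, which takes MAX's place in the glucose-responsive branch, showed the only fall among the members that passed the threshold. Its values were 2480.6, 2412.0 and 2632.1 normalized counts in the libraries labelled si-Control and 1963.5, 2085.8 and 2008.2 in those labelled si-CITED2, with a wide gap between the groups. The mean went from 2508.2 ± 112.6 to 2019.2 ± 61.9 (SD, n = 3 each), a change of -19.5%. The log2 fold change was -0.31 (standard error 0.054, interval -0.43 to -0.20, adjusted p = 0.000568), and all 13 alternatives kept the call. MLX overlaps another gene in the annotation, PSMC3IP on the opposite strand. The total of shared exon bases was not computed. The longest single shared stretch is 710 exon bases, 27.4% of the exon bases of MLX. PSMC3IP, which encodes a meiotic recombination factor, was also lower, at 2087.2 ± 167.5 against 1570.9 ± 156.5 normalized counts (log2 fold change -0.41, adjusted p = 0.000779). Whether the counting used strand is not given in the sources used here, so reads of these genes in the shared stretch cannot be told apart, and the part of PSMC3IP in the fall of MLX was not tested.

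MLXIP, the partner that carries MLX to the nucleus when glucose-6-phosphate is high, moved the other way. It had 1425.6, 1665.7 and 1648.4 normalized counts against 1942.8, 1911.0 and 1803.4, without overlap. Its log2 fold change was 0.26 (standard error 0.064, interval 0.12 to 0.39, adjusted p = 0.0105). Without si-CITED2 replicate 2 the adjusted p was 0.0521. MLXIPL, the liver and fat counterpart of MLXIP, was low, at 88.9, 130.4 and 129.4 against 143.3, 130.9 and 131.5 normalized counts. The highest value of the first group lay just below the lowest of the second, and its log2 fold change was 0.22 (interval -0.12 to 0.56), short of the threshold.

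To set the levels of different genes side by side, normalized counts were divided by the exon bases of each gene in GENCODE 29. On this per-kilobase scale the order in the libraries labelled si-Control was MLX (968.4 ± 43.5), MXD3 (616.9 ± 24.8), MAX (516.1 ± 16.4), MYC (450.2 ± 4.2), MGA (257.3 ± 8.5), MXI1 (200.8 ± 8.9), MXD4 (169.3 ± 12.6), MLXIP (167.7 ± 14.2), MNT (81.8 ± 5.1), MXD1 (61 ± 10.4), MLXIPL (32.6 ± 6.6), MYCL (21.2 ± 2.1) and MYCN (1.1 ± 0.65), each with its SD over 3 libraries. MXD4 and MLXIP were the only neighbours in this order whose 3 values overlapped. In the libraries labelled si-CITED2, MXD4 passed MXI1 and stood at 244.2 ± 17.8 per kilobase, level with MGA (256.2 ± 3.6, overlapping values). The exon bases are the union over annotated transcripts, from 2590 for MLX to 15180 for MGA, so the order rests on that choice of length.

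Since the proteins act as pairs, the ratio of normalized counts of each partner to MAX or MLX was taken in every library, as a description with no test. Of 13 such pairs, 7 had groups that did not overlap, 5 of which share MLX, itself called lower, as denominator and are not separate observations. Single genes did not overlap in 32.5% of cases over all genes; the share for ratios of other gene pairs was not computed. MYC per MAX was 0.668, 0.622 and 0.627 in the libraries labelled si-Control and 0.520, 0.587 and 0.552 in those labelled si-CITED2, all lower. MXD4 per MAX was 0.363, 0.298 and 0.314 against 0.479, 0.474 and 0.410, all higher. The remaining MAX partners (MYCL, MXD1, MXD3, MXI1, MNT and MGA) overlapped.

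The 5 MLX ratios were higher in every library labelled si-CITED2. MLXIP per MLX was 0.575, 0.691 and 0.626 against 0.989, 0.916 and 0.898. MXD4 per MLX was 0.274 ± 0.022 against 0.491 ± 0.042 (SD, n = 3 each). The sum of MXD1, MXD3, MXD4, MXI1 and MNT per MYC was 3.22, 3.19 and 3.09 against 4.16, 3.81 and 3.69. The read balance between repressive partners and MYC was higher in each library labelled si-CITED2, with MXD4 up, MXD1 short of the threshold and MYC short of it on the other side. These are ratios of reads and not of protein.

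**Figure D3:**
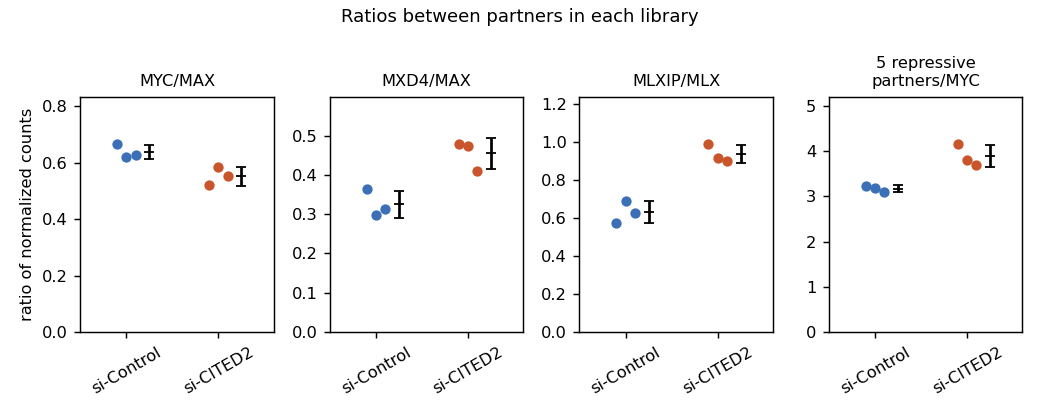
Ratios of normalized counts in each library (points; bars are mean ± SD of 3, axes from 0) for MYC to MAX, MXD4 to MAX, MLXIP to MLX, and the summed MXD1, MXD3, MXD4, MXI1 and MNT to MYC. The groups did not overlap in any panel shown. Other pairs are not drawn, among them the MAX ratios of MYCL, MXD1, MXD3, MXI1, MNT and MGA, whose groups overlapped. MYC per MAX was at most 0.587 in the libraries labelled si-CITED2 and at least 0.622 in the others.

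Cofactors that carry out the work of these dimers were then counted. Of 16 coactivators recruited by MYC, 4 were called lower and 0 higher, beside 8.09% of all genes called lower and 9.36% higher. Their median log2 fold change was -0.05. An unadjusted p under 0.05 in edgeR also gave 0 higher, as did an adjusted p under 0.05 in DESeq2. Without si-CITED2 replicate 3, 2 were called lower. The 4 were RUVBL2 (5647.7 ± 71.6 against 4777.4 ± 243.7 normalized counts, log2 fold change -0.24, adjusted p = 0.00241) and RUVBL1 (-0.22, adjusted p = 0.00368), the paired ATPases of the TIP60 and INO80 complexes, PAF1 (-0.19, adjusted p = 0.0102), an elongation factor, and WDR5 (-0.17, adjusted p = 0.0412), a core subunit of histone methyltransferases that binds MYC. EP300, the acetyltransferase that binds CITED2, had a log2 fold change of -0.07 (adjusted p = 0.528); it was named after its value was seen. Of 12 genes of the SIN3 and NCOR corepressors, through which MXD proteins and MNT act, 1 was called higher and 1 lower, near the 17.4% of all genes called in either direction. RBBP7, a histone-binding subunit, was called lower by a small margin (log2 fold change -0.14, adjusted p = 0.0447), a call that was lost on leaving out any 1 library. SIN3A, SIN3B, HDAC1, HDAC2 and NCOR1 were not called.

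Of 15 genes that set how long the MYC protein lasts, 5 were called lower and 1 higher, beside 8.09% and 9.36% of all genes (median log2 fold change -0.08). AURKA, a mitotic kinase known for stabilizing MYCN and MYC proteins, went from 4716.3 ± 63.9 to 3311.8 ± 59.3 normalized counts (log2 fold change -0.51, adjusted p = 5.92e-07). CIP2A, which shields MYC from the phosphatase PP2A, had a log2 fold change of -0.23 (adjusted p = 0.0166). The ubiquitin ligases SKP2 (-0.23, adjusted p = 0.00684) and STUB1 (-0.18, adjusted p = 0.0315) were also called lower. GSK3B, whose phosphorylation marks MYC for decay, was called higher (log2 fold change 0.24, adjusted p = 0.00672). FBXW7, the ligase that reads this mark, stood at 316.3 against 314.3 normalized counts (adjusted p = 0.99); it was named after its value was seen. Between 2 and 4 of the list were called lower when 1 library was left out. It was 2 without si-CITED2 replicate 3, and 3 without si-CITED2 replicate 2 or without si-Control replicate 2 or 3. Several of these genes, among them AURKA, SKP2 and CIP2A, also rise and fall with cell division.

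Of 30 genes commonly listed as activated by MYC, 29 were tested, 16 were called lower and 2 higher, and 11 were not called. Beside the 8.09% of all genes called lower, 16 of 29 is a larger share, and the median log2 fold change was -0.18 against -0.001 over all genes. The 8.09% covers genes of every level that passed the filter, and genes with many counts can be called at small changes. The share over genes of like level was not computed. Lists are not independent of earlier results on these data, and no test of the list was made. The largest falls by the rule for naming were TERT, the telomerase catalytic subunit (181.3 ± 35.5 to 98.2 ± 22.4 normalized counts, log2 fold change -0.88, adjusted p = 0.0022), E2F2 (-0.56, adjusted p = 0.00132) and CDC25A (-0.41, adjusted p = 0.000611), which drive entry into S phase, and TFRC, the transferrin receptor (-0.34, adjusted p = 0.00066). NCL, the nucleolin gene the study centres on, was among the 16, at 34582 against 30254 normalized counts (log2 fold change -0.19, adjusted p = 0.0197).

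Both genes called higher in that list were metabolic enzymes. Other metabolic enzymes of the list were called lower, among them SRM (log2 fold change -0.32), PPAT (-0.19), PAICS (-0.18) and ENO1 (-0.17). These were named after their values were seen. LDHA, which makes lactate and is also a hypoxia target, went from 21798 ± 478 to 30713 ± 579 normalized counts (log2 fold change 0.49, adjusted p = 4.92e-07). ODC1, the first step of polyamine synthesis, had a log2 fold change of 0.29 (adjusted p = 0.000369). CCND2 was not tested, at 2 to 11 counts per library. CACGTG was present in 11 of the 26 windows of this list that were examined (42.3%), beside 8.91% for all genes tested; the list was drawn from knowledge of MYC targets, so its share is a description.

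Among 12 genes commonly listed as repressed by MYC, 10 were tested, 2 were called higher and 1 lower, beside 9.36% and 8.09% of all genes. CDKN1A, which encodes the cell cycle inhibitor p21, had 511.9, 510.4 and 476.5 normalized counts in the libraries labelled si-Control and 2116.5, 2109.7 and 1984.1 in those labelled si-CITED2. This 4.14-fold level was the largest change in the 9 lists (log2 fold change 2.05, standard error 0.062, adjusted p = 4.64e-13). GADD45B, a stress response gene, was 615.8 ± 31.9 against 1269.9 ± 56.4 (log2 fold change 1.04, adjusted p = 6.61e-09). KLF6, a zinc finger tumour suppressor, was lower (log2 fold change -0.35, adjusted p = 0.00307). CDKN2B (p15), a gene that MYC holds down together with MIZ1, had 264.0, 228.6 and 323.6 normalized counts against 297.5, 304.8 and 326.5 and was not called (log2 fold change 0.20, adjusted p = 0.305); it was named after its value was seen. CDKN1A and GADD45B are also known targets of TGF-beta signalling, and LDHA and HK2 of hypoxia signalling, so these lists are not particular to MYC or MLX.

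The 5 genes commonly listed as bound by MLX with MLXIP or MLXIPL went in both directions. Of these, 2 were called lower and 2 higher, beside 8.09% and 9.36% of all genes. TXNIP, which restrains glucose uptake and is the best known target of the pair, had 477.3, 493.5 and 527.1 normalized counts against 359.4, 297.2 and 395.5, all lower (log2 fold change -0.51, adjusted p = 0.00169). ARRDC4, its paralog, had 73.8, 78.1 and 83.5 against 69.2, 55.4 and 52.6, also without overlap, but was not called (log2 fold change -0.41, adjusted p = 0.14).

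HK2, the hexokinase that makes glucose-6-phosphate, went from 1056.2 ± 28 to 591.4 ± 14.3 normalized counts (log2 fold change -0.84, adjusted p = 6.39e-08). PFKFB3, which speeds glycolysis, rose from 2039.2 ± 75 to 3858.4 ± 421.8 (log2 fold change 0.92, adjusted p = 4.69e-08). KLF10, a TGF-beta-inducible repressor, had a log2 fold change of 0.48 (adjusted p = 0.000138). The enzymes of the list changed in opposite directions, while TXNIP moved with MLX and against MLXIP.

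The TXNIP start is shown because MLX dimers are known to bind paired E-box-like letters there. It is taken from RefSeq (GRCh38.p14) at chr1:145996530-145996829, minus strand, 5′ to 3′, with each match to CACGNG on either strand in capitals. The window holds 4 matches. At least 1 match was present in 30.48% of all windows and in 38.61% of the windows of genes tested, while the share with 4 was not computed. Among the windows examined, those of NPM1 and FBL also held 4. CACGNG includes CACGTG, which this window does not hold.
TXNIP: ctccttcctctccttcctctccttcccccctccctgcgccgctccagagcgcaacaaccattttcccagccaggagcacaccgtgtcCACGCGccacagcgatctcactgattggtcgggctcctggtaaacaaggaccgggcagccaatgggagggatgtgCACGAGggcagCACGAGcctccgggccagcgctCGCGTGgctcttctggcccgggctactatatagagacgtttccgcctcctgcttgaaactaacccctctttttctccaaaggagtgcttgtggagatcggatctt

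**Figure D4:**
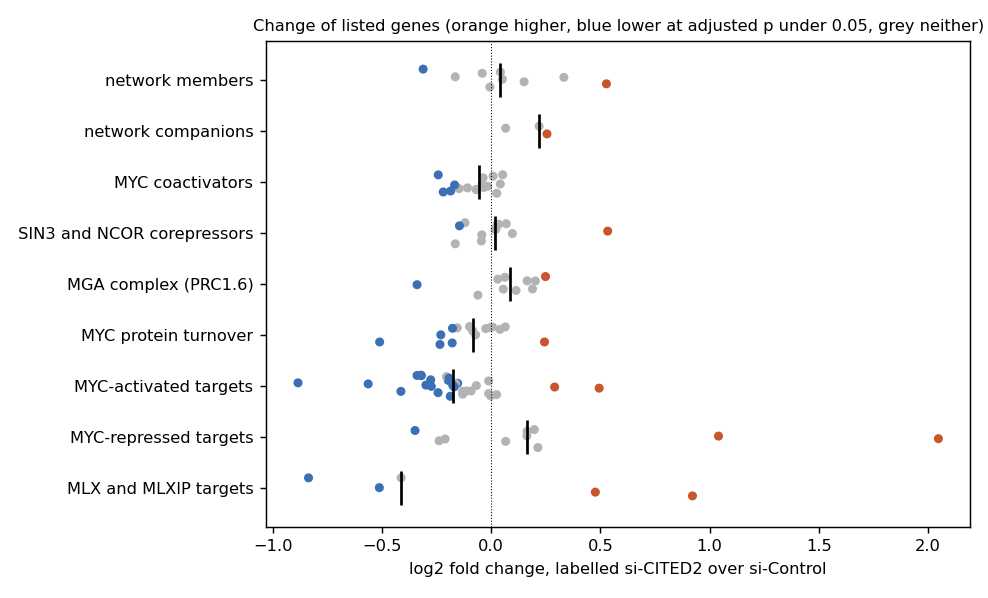
Log2 fold change (libraries labelled si-CITED2 over those labelled si-Control) of each tested gene in the 9 lists, 1 point a gene and a bar at each list's median; orange is called higher, blue called lower and grey not called. The MYC-activated targets lay mostly below 0 (median -0.18, 16 called lower), and CDKN1A (2.05) and GADD45B (1.04) lay farthest to the right.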

How the data were processed

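RNA-seq libraries of PC3 cells (3 labelled si-Control, 3 labelled si-CITED2) were analysed from raw counts. The authors deposited whole-number read counts per gene symbol, 1 table per library and not normalized. The submitters' processing notes name hg19, TopHat and edgeR without role or version; the counting program and its use of strand are not given in the sources used here. Of 25737 rows, the one with most counts was kept for each of 24462 symbols (0.082% of counts left out, none of them in a gene listed here).

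In R 4.3.3, edgeR 4.0.16 was used: filterByExpr (16314 genes kept), TMM, glmQLFit and glmQLFTest without a block, Benjamini-Hochberg adjustment over all genes. Standard errors came from the F statistic. Total counts of 19508925 to 28936374 limit precision for genes of a few counts. No replicates agreed within sampling noise (lowest chi-square over degrees of freedom 2.89). The paper states that the experiments were independent.

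Changes were planted in simulated counts for this comparison, only in genes that averaged at least 100 counts. Of these, 87 of 100 at an absolute log2 fold change of 0.5 and 100 of 100 at 1 were recovered. Smaller changes were not planted. Of the calls 9.66% were false, and 0 genes were called with no change planted. Alternatives were DESeq2 1.42.0, RLE or library size scaling, other filters, summed symbol rows, a replicate block and leaving out each library. Exon bases came from the GENCODE 29 basic annotation (GRCh38), and start-site windows from RefSeq.

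The members and lists were chosen with earlier results of these data known. All members and companions are named; from each longer list, the called genes with the largest absolute change were named, at most 4 in each direction, and lists of 5 or fewer whole. Others were named after their values were seen. Genes without a window, and windows not examined, are not analysed here. Some genes of the lists are counted but not reported by name here.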

Additional observations from a re-analysis of the deposited data

How the results depend on the processing

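Of 156 log2 fold changes of members and companions under 13 alternatives, 149 kept their direction and side of the threshold; MXD4 and MLX did so in every one. MGA, at -0.01, turned sign without si-Control replicate 3 (0.018) and without si-CITED2 replicate 3 (0.0056), and ranged from -0.028 to 0.018 over the 6 omissions. MLXIP missed the threshold without si-CITED2 replicate 2. The count of members called lower became 2 (MYC added) with library size alone, and the count called higher became 2 (MXD1 added) with no filter beyond 1 count, with the replicate block, and without si-Control replicate 3 (1 to 2 over the 6 omissions). Samples with the same replicate number did not deviate together (r from -0.037 to 0.046, against -0.038 to 0.046 for different numbers). Libraries made together need not deviate together, so this cannot settle whether the numbers mark pairs. The block moved all genes called to 1154 lower and 1405 higher from 1319 and 1527. For the lists, no filter and the replicate block each gave 0 corepressors called lower, as did every omission (0 to 0), and a minimum of 10 counts gave 2 subunits of the MGA complex called higher. Leaving out 1 library gave 0 to 1 companions called higher, 2 to 5 coactivators called lower (2 without si-CITED2 replicate 3), 0 to 2 MGA complex subunits called higher (0 without si-Control replicate 1 or 3, 2 without si-Control replicate 2) and 2 to 4 turnover genes called lower. MYC-activated targets called lower stayed between 12 and 17. The cause of these moves was not tested. Depth limits MYCN, at 1 to 7 counts.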
